A study of Homo sapiens with 20 samples.

Results

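Regions bound by HIF1A in hypoxia were compared between 2 colon cancer cell lines and 2 lung cancer cell lines. A region was the union of hypoxia peaks sharing at least 1 bp, and it was kept when it was called in at least 1 colon line and at least 1 lung line. This gave 1449 of 19628 regions (7.38%), made up of 232 with a peak in every line, 448 with a peak in 3 lines and 769 with a peak in 2. A further 183 regions were called in both colon lines and no lung line, and 279 in both lung lines and no colon line, and they are outside the comparison.

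The colon side was HCT116, a colorectal carcinoma line, and RKO, a colon carcinoma line. The lung side was A549, a lung adenocarcinoma line, and H460, a large cell lung carcinoma line. All groups were unmodified cells held for 24 h at 1% oxygen and processed for ChIP-seq, which sequences the DNA recovered with an antibody against a chromatin protein, here HIF1A. Each line contributed 2 ChIP libraries, which had been merged before peaks were called, so no value has a replicate error. Comparisons between sides therefore rest on 2 lines against 2. The lines also differed in handling. Chromatin was sonicated for 25 cycles in HCT116 and RKO, 30 in A549 and 20 in H460, and HCT116 was grown in McCoy's medium, RKO and A549 in DMEM and H460 in RPMI. RKO and A549, which share a medium, lie on opposite sides, whereas sonication differed between the sides in every pair of lines and cannot be told apart from them. Each side holds established lines of 1 organ, and no normal colon or lung tissue was measured.

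HIF1A is the oxygen-labile subunit of hypoxia-inducible factor. In normal oxygen, prolyl hydroxylases of the EGLN family mark it for destruction, and in low oxygen it accumulates, pairs with ARNT and binds the hypoxia response element, whose core reads RCGTG (R is A or G). Its best known targets in carcinoma cells encode glycolytic enzymes, glucose and lactate transporters, angiogenic factors and regulators of HIF itself.

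The merged libraries held 81.5 (HCT116), 66.9 (RKO), 46.6 (A549) and 49.5 (H460) tags in units of 1e6, where a tag is 1 aligned read. The lists held 3996, 9171, 5408 and 3877 peaks in that order, and a peak had to exceed the input by 7, 6, 13 and 14 fold. Signal was the deposited Normalized Tag Count, the tags in a peak scaled to a library of 10000000 tags. At the 232 regions called in all 4 lines its median was 11.8 for HCT116, 9.79 for RKO, 23 for A549 and 27 for H460, higher in both lung lines. Regions were therefore compared by percentile rank, the percent of a line's own list that lay below the region, and also after the median over the 232 regions had been subtracted from log2 (Normalized Tag Count + 1), called the centred log2 value below. Before that subtraction the colon median lay below the lung median by 1.14 on the log2 scale (colon minus lung, -1.14).

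Lineage genes were looked up only as HIF1A peaks, and expression data of these lines were not used here. None of 8 colon genes (among them CDX2, VIL1 and LGR5) and 8 lung genes (among them NKX2-1, SFTPB and NAPSA) had a region called on both sides. CDH17, a colon gene, had a peak in RKO alone, GPA33, another colon gene, and NKX2-1 had one in H460 alone, SFTPA1 had one in A549 alone, and FOXJ1 had one in A549 and in H460.

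Sequences at a selection of the separated loci described below are shown first, as 61 bases around the core nearest to the centre of the region. The selection does not follow the width of the gap. They are on the plus strand of GRCh37, 5′ to 3′, and capitals mark the core RCGTG on either strand (ACGTG or GCGTG, and CACGT or CACGC as their complements). The first 5 sites ranked higher in both colon lines.
Site near HNRNPD, chr4:83206504-83206564: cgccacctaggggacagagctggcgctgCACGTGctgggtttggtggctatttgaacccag
ANKRD37, chr4:186317584-186317644: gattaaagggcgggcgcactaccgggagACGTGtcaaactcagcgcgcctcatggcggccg
VEGFA, chr6:43739229-43739289: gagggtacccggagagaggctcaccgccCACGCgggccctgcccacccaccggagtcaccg
ARID1B, chr6:157342637-157342697: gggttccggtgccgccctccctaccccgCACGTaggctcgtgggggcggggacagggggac
KDM1A, chr1:23345814-23345874: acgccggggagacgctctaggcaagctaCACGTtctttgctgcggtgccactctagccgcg
The next 4 sites ranked higher in both lung lines.
Site upstream of BIRC3, chr11:102158930-102158990: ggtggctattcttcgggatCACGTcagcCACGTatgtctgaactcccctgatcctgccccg
Site upstream of ITGB3, chr17:45307304-45307364: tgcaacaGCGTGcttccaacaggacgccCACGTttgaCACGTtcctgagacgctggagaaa
DYNC2I1 intron, chr7:158656831-158656891: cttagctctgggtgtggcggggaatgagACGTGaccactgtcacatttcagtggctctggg
TAF9B, chrX:77395194-77395254: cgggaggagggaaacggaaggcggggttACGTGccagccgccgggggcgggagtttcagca

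The first question was how often the sides separated, meaning that both lines of one side ranked above both lines of the other. By rank within the list, 93 of the 232 regions (40.1%) were higher in both colon lines and 8 (3.45%) in both lung lines, and the sides overlapped at 131. The separation on the colon side was often narrow, with a median gap of 2.04 percentile points between the lower colon line and the higher lung line, a gap under 1 point at 32 of the 93 regions, and a widest gap of 18 points. On the lung side the median gap was 4.38 points and the widest 12.1.

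The lists differ in length and the split differed with the scale. RKO, whose list was the longest, held the highest percentile at 156 of the 232 regions, and its median percentile was 97.6 against 94.5 (HCT116), 94.7 (A549) and 93.2 (H460). Region by region, the mean of the colon lines minus that of the lung lines had a median of 1.56 points (interquartile range 0.105 to 6.2) and was positive at 178 of 232. The mean of the medians was 96.1 ± 2.17 in colon lines and 94.0 ± 1.08 in lung lines (SD, n = 2 lines a side), and the difference was 2.1 points (exact permutation test, two-sided p = 0.667, where 0.333 is the smallest possible). When the regions were ranked only among the 232, 47 (20.3%) were higher in both colon lines and 49 (21.1%) in both lung lines. On centred log2 values the counts were 65 (28.0%) and 35 (15.1%). When every list was shortened to its 3877 strongest peaks, the length of the H460 list, 231 regions remained in all 4 lines and 69 and 27 of them separated. The side with more regions thus depended on the scale, while 0 of the regions ranked higher in both colon lines within the list became higher in both lung lines by shared rank or by centred log2.

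On all 3 scales together (rank in the list, rank among the 232 and centred log2), 44 regions (19.0%) were higher in both colon lines and 7 (3.02%) in both lung lines. Gaps were also set against counting error, taken as exact Poisson 95% intervals of the tags behind each peak, which cover counting error only. By rank, 21 regions (9.05%) had colon intervals wholly above the lung intervals and 3 (1.29%) the reverse. By centred log2 these counts were 13 (5.6%) and 5 (2.16%). The bar chart of separated regions by scale shows these counts side by side.

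**Figure D1:**
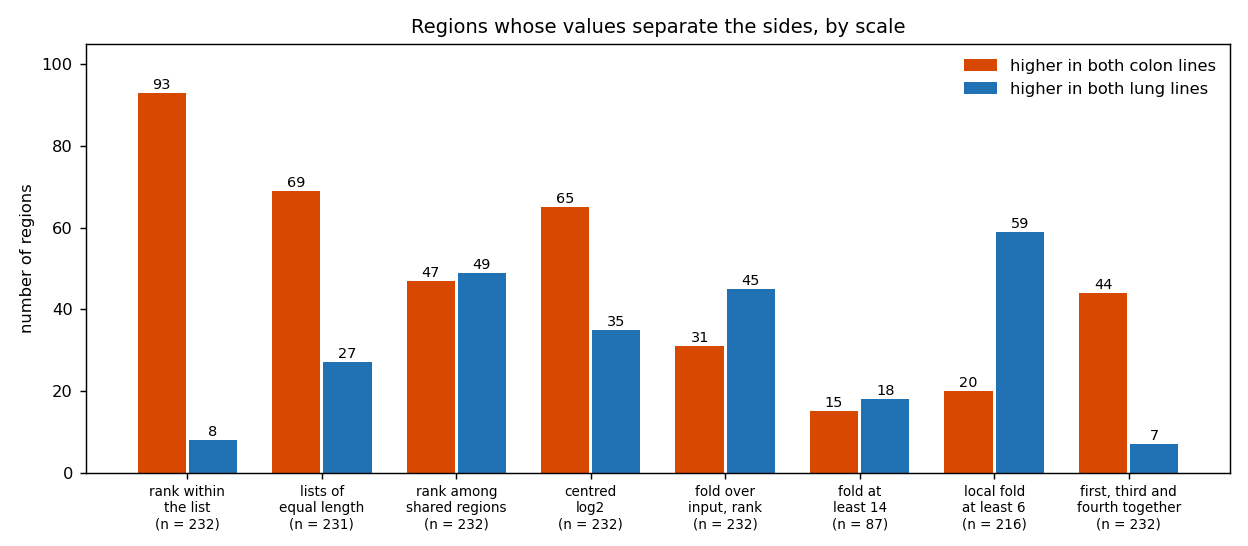
Number of regions (vertical axis) whose values were higher in both colon lines (orange) or in both lung lines (blue), under 8 ways of scaling or filtering the lists, with the number of regions called in all 4 lines under each label. The split runs from 93 against 8 by rank within the list to 20 against 59 with a local fold of at least 6, and the last pair, 44 against 7, counts regions separated by rank in the list, rank among shared regions and centred log2 alike.

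Tested region by region on centred log2 values with limma, 0 regions passed an adjusted p of 0.05 in the colon direction (0.0%) and 0 in the lung direction (0.0%). At an unadjusted p of 0.05 the counts were 20 and 7, and the lowest adjusted p was 0.179. Fitted on the logit of the percentile rank instead, limma called 1 region, in the lncRNA gene SCIRT on chromosome 6, as higher in colon lines (Benjamini-Hochberg adjusted p = 0.0183). That fit used the same ranks as the separation rule, so it is not separate support, and it gave every region the same variance. The region stood at the top of the RKO list (tag count 73.5), where the logit depends on list length. Its tag count was higher in A549 than in either colon line. The loci that follow are described by their values in each line.

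The 4 lines ordered the shared regions in a similar way. Over the 232 regions, Spearman's rho of the percentile ranks was 0.799 between the colon lines and 0.812 between the lung lines. Across sides HCT116 reached 0.818 with H460 and 0.740 with A549, while RKO reached 0.722 with A549 and 0.720 with H460. The value for HCT116 with H460 was thus close to the value for HCT116 with RKO. The points share the peak caller and the genome sequence, and regions are not replicates.

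**Figure D2:**
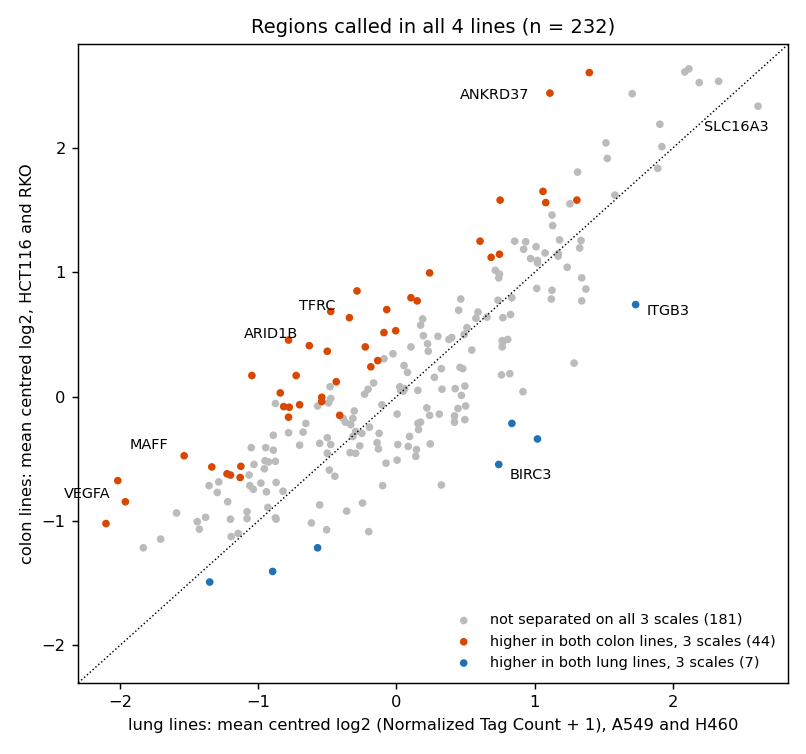
Mean centred log2 (Normalized Tag Count + 1) of the colon lines (vertical axis) against that of the lung lines (horizontal axis) for the 232 regions called in all 4 lines, with the line of equality dotted. The 44 orange regions were higher in both colon lines and the 7 blue regions higher in both lung lines on all 3 scales, and the other 181 are grey.

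Among regions higher in both colon lines, the widest gap lay at an intergenic site on chromosome 4 (chr4:83206438-83206603), 89130 bp from the start of HNRNPD, the nearest coding gene. Its Normalized Tag Count was 7.11 in HCT116 and 5.68 in RKO against 5.37 in A549 and 5.46 in H460, and its percentile was 86.0, 93.0, 68.0 and 38.1. The tag counts were close, and the colon lines ranked higher because a given count stands higher in their lists. The counting intervals of the percentile ran from 79.1 to 90.9 in HCT116 and from 84.4 to 95.9 in RKO, above those of A549 (33.4 to 78.2) and H460 (9.29 to 60.6). On the centred log2 scale the colon lines exceeded the lung lines by 1.34 ± 0.32 (limma estimate and SE, n = 2 lines a side, adjusted p = 0.179). The 200 bp at its centre held 4 cores.

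MAFF, which encodes a small MAF protein that pairs with NRF2 and related factors, had a region 1798 bp downstream of its start (chr22:38598463-38598704). Its tag count was 8.22 in HCT116 and 6.73 in RKO against 6.66 in A549 and 9.50 in H460, and its percentile was 89.2, 94.6, 73.5 and 65.9. The sides did not overlap by rank, and the centred log2 difference was 1.05 ± 0.32 (limma, adjusted p = 0.206).

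The next loci were close to starts or in introns. KDM1A encodes the histone H3 lysine demethylase LSD1, and its region lay at -107 bp from the start (chr1:23345738-23345917) at percentiles of 90.2 in HCT116 and 92.6 in RKO against 79.7 in A549 and 69.2 in H460. Its tag counts were 8.71, 5.53, 8.37 and 10.3 in the same order, and the counting intervals of the sides overlapped. ARID1B and SMARCC1 encode subunits of SWI/SNF chromatin remodellers. The ARID1B region was intronic (chr6:157342550-157342749), with tag counts of 17, 12.6, 12.9 and 19.2 in the order HCT116, RKO, A549 and H460 and percentiles of 97.2, 98.6, 87.7 and 86.8. Its difference was 1.04 ± 0.33 in centred log2 (limma, adjusted p = 0.206), beyond counting error on both scales. The SMARCC1 region lay 88 bp into the gene (chr3:47823427-47823599) at percentiles of 94.6, 96.9, 84.8 and 88.7. Its tag counts were 11.9, 8.82, 10.7 and 20.8, and the counting intervals of the sides overlapped.

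TAF12, a subunit of TFIID and SAGA, had a region at -357 bp from its start (chr1:28975054-28975262) with a tag count of 13 in HCT116 and 11.5 in RKO against 14 in A549 and 15.4 in H460, at percentiles of 95.3, 98.3, 89.0 and 81.1. CTDP1 encodes a phosphatase of the RNA polymerase II tail, and its region, which lay at -41 bp from its start and -17 bp from that of the divergent CTDP1-DT (chr18:77439669-77439843), held 6 cores and stood at percentiles of 90.4, 93.2, 82.8 and 84.6. That region was not separated on centred log2 values, where RKO (-0.66) lay below H460 (-0.61). UBE2F, a conjugating enzyme for the ubiquitin-like protein NEDD8, had a region at its start (chr2:238875464-238875650) at percentiles of 91.8, 97.4, 85.8 and 84.6. Its tag counts were 9.57 in HCT116 and 9.42 in RKO against 11.4 in A549 and 17.4 in H460, higher in both lung lines. At the CTDP1 region they were also higher in both lung lines, at 8.83 and 5.83 against 9.88 and 17.4. The counting intervals of the sides overlapped at the UBE2F and CTDP1 regions. CCDC110 completed the 10 widest gaps, with a region 292 bp into the gene (chr4:186392537-186392706) at percentiles of 96.2, 96.3, 85.5 and 82.9. Its tag counts were 14.7, 8.22, 11.2 and 16.2.

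VEGFA, the main angiogenic growth factor of the HIF response, was the remaining member of those 10. Its only region called in all 4 lines lay in an intron, 1354 bp from the start (chr6:43739151-43739382). The tag count was 4.42 in HCT116 and 6.88 in RKO against 4.94 in A549 and 6.47 in H460, from only 23 to 46 tags in a line. The percentile was 71.6, 94.9, 65.2 and 49.8, and the counting interval of HCT116 (52.7 to 81.9) overlapped those of A549 (5.33 to 76.8) and H460 (22.5 to 64.7). The ranks separated, but the colon line HCT116 was closer to A549 than to RKO.

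On the centred log2 scale 2 further loci stood among the 5 widest colon gaps. ANKRD37, a HIF1A target that encodes an ankyrin repeat protein, had a region 456 bp from its start (chr4:186317551-186317711). It was among the strongest of every list, with tag counts of 62.9 in HCT116 and 62.6 in RKO against 47.9 in A549 and 63.1 in H460 and percentiles of 99.8, 100.0, 99.0 and 99.0. While the median shared region carried more tags in lung lines, this one lay between 47.9 and 63.1 in every line, and its centred log2 value was 2.32, 2.56, 1.03 and 1.19, a difference of 1.33 ± 0.33 (limma, adjusted p = 0.179). It was also called in normoxia in all 4 lines, at tag counts of 19.7, 15.7, 19.6 and 13.5. LINC00115, a lncRNA gene at one end of chromosome 1, had a region at -15 bp from its start (chr1:762850-763027), at percentiles of 96.5, 99.1, 91.0 and 74.8 and a difference of 1.24 ± 0.35 (limma, adjusted p = 0.201).

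**Figure D3:**
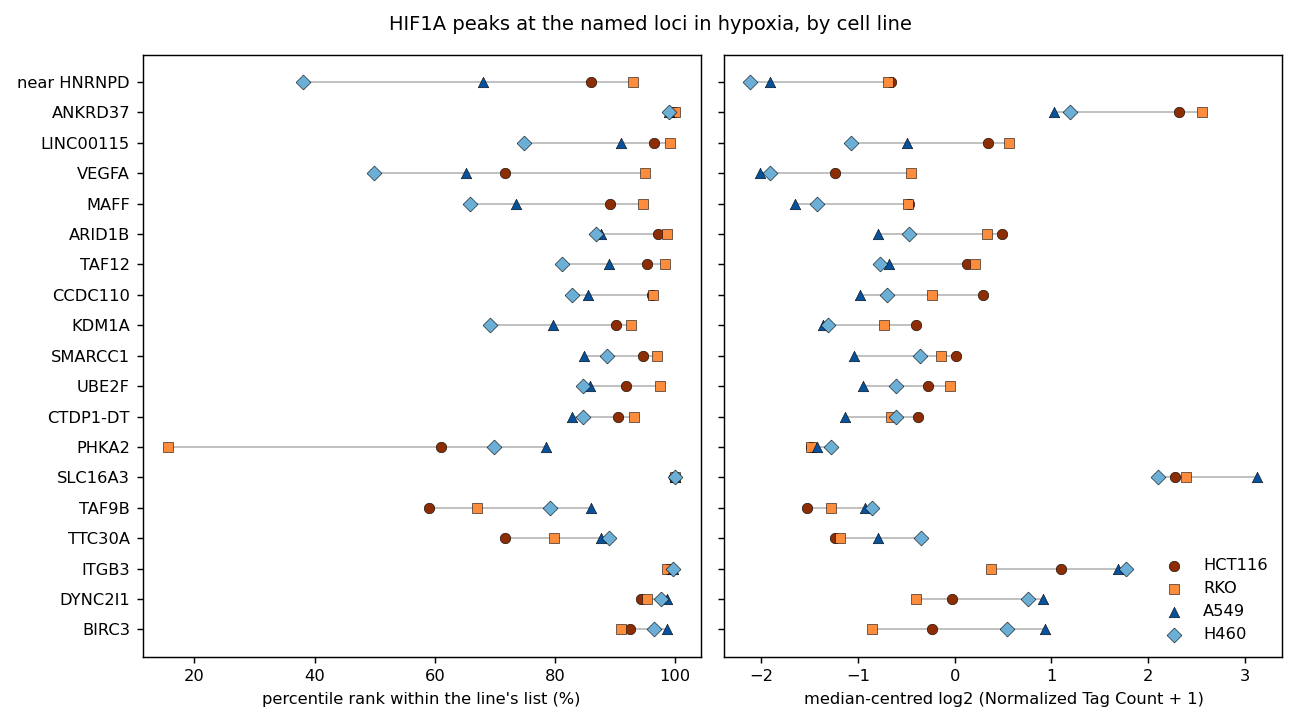
Percentile rank within the list of the line (left) and centred log2 (Normalized Tag Count + 1) (right) at 19 named loci in HCT116, RKO, A549 and H460, ordered by the difference between sides. ANKRD37 ranked at 99.0 or above in every line yet differed by 1.33 in centred log2, whereas PHKA2 spanned percentiles of 15.6 to 78.5 with a difference of only -0.14.

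Of the 8 regions higher in both lung lines, 6 lay farther than 2500 bp from a gene start. BIRC3, an inhibitor of apoptosis and ubiquitin ligase of NF-kB signalling, had a site at -29257 bp from its start (chr11:102158878-102159053). The tag count was 9.94 in HCT116 and 4.93 in RKO against 44.9 in A549 and 39.8 in H460, and the percentile 92.4, 90.9, 98.7 and 96.5. The counting intervals did not overlap between sides. The difference, colon minus lung, was -1.28 ± 0.36 in centred log2 (limma, adjusted p = 0.201). ITGB3, the integrin beta 3 subunit, had a site at -23869 bp (chr17:45307242-45307410) with tag counts of 26.4, 13, 76.7 and 94.6 in the same order and percentiles of 98.8, 98.7, 99.7 and 99.7. BIRC3 and ITGB3 were among the 3 regions whose counting intervals separated on the lung side by rank.

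An intronic site 7607 bp into DYNC2I1, which encodes a chain of the ciliary dynein-2 motor, was higher in both lung lines, with tag counts of 11.5 in HCT116 and 7.18 in RKO against 44 in A549 and 46.3 in H460 (chr7:158656759-158656941) and percentiles of 94.3, 95.3, 98.7 and 97.7. TTC30A, a component of ciliary transport, had a region at its start (chr2:178483368-178483546) at percentiles of 71.6, 79.9, 87.7 and 88.9. RKO held only 25 tags there, and its counting interval, 1.59 to 92.4, contained both lung values.

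The other lung loci were weaker or at the edge. TAF9B, a paralogue of the TFIID subunit TAF9, had a region at -60 bp from its start on chromosome X (chrX:77395114-77395302) with tag counts of 3.43 in HCT116 and 3.44 in RKO against 11.6 in A549 and 14.4 in H460 and percentiles of 59.0, 67.0, 86.0 and 79.1. It held the widest lung gap by rank, 12.1 points, but rested on 23 to 28 tags in the colon lines. An intergenic site on chromosome X at -3661 bp from the start of PHKA2-AS1, with PHKA2 as the nearest coding gene, stood at percentiles of 61.1, 15.6, 78.5 and 69.9, and its centred log2 values, from -1.49 to -1.28, spanned a narrow range. SLC16A3, which encodes the lactate exporter MCT4, counted as higher in both lung lines by a gap of only 0.00639 points. It lay at the top of all 4 lists (percentiles of 99.762, 99.929, 99.991 and 99.936), with tag counts of 61.1, 55.5, 208.5 and 118.7, and it did not separate on centred log2 values, where RKO (2.39) lay above H460 (2.10). Just outside the rule were NDRG1, BHLHE40 and EGLN3, with gaps of -0.00444, -0.0105 and -0.0224 points (negative where the sides overlap), and just inside on the colon side was LINC01004, with a gap of 0.0291 points.

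Input reads differed between lines at these regions. The mean number of input tags in the window of a region, as scaled in the deposited files, was 6.62 in A549 at the 8 lung regions against 1.75 in HCT116, 1.88 in RKO and 2.38 in H460. At the 93 colon regions it was 2.96 in A549 against 2.63, 2.83 and 2.08, and at the regions where the sides overlapped it was 4.23 in A549 against 2.4, 3.06 and 2.27. Input tags in A549 thus moved with the class, and their part in the result was not tested.

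Known hypoxia genes were examined as 14 lists of 125 genes, including the lineage genes. A region called in all 4 lines was assigned to 29 genes, in 32 regions. By rank, 11 of the 32 regions were higher in both colon lines and 1 in both lung lines, beside 40.1% and 3.45% of all 232. On centred log2 values 9 and 4 separated, beside 28.0% and 15.1% of all. The median centred log2 difference was 0.20 for the listed regions and 0.17 for all 232.

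Glycolysis was the best covered, with 12 of 18 genes in 13 regions, of which 3 were higher in both colon lines and 0 in both lung lines by rank, and 3 and 3 on centred log2. ENO1, the enolase of most tissues, had tag counts of 92.4 in HCT116 and 42.2 in RKO against 72.2 in A549 and 96.4 in H460 and was higher in both colon lines by rank, at percentiles of 100.0, 99.9, 99.6 and 99.8, although it did not separate when ranked among the 232 regions. HK2, the inducible hexokinase, had a region at -245 bp from its start with tag counts of 21, 19.4, 10.1 and 39.8, and A549 stood apart at the 83.2 percentile from 98.2, 99.5 and 96.5 in the other lines. PFKP, the platelet phosphofructokinase, was higher in both colon lines by rank but not on all 3 scales, at percentiles of 88.2, 90.2, 83.8 and 75.9.

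On centred log2 values 3 glycolytic regions were higher in both lung lines, which they were not by rank. PKM, the pyruvate kinase, stood at 0.71 in HCT116 and 1.02 in RKO against 1.40 in A549 and 1.34 in H460, ALDOC, a brain-enriched aldolase, at -0.03, 0.05, 0.47 and 0.47, and the divergent GAPDH-DT promoter of GAPDH at 0.61, 0.31, 0.97 and 0.64. LDHA, lactate dehydrogenase A, with 1.91, 2.17, 1.94 and 1.09, GPI, glucose phosphate isomerase, with 2.50, 2.57, 3.06 and 1.60, and ALDOA, the muscle-type aldolase, with 1.77, 1.90, 1.94 and 1.84, were strong in all lines and overlapped between sides. By count, glycolysis regions were thus even between the sides on that scale, with a median difference of 0.31.

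Of 2 regions of oxygen sensing genes and 3 of histone demethylases, 1 each was higher in both colon lines by rank, beside 40.1% of all 232. On all 3 scales it was again 1 each, beside 19.0% of all. These lists hold too few regions to set a share apart from that of all regions. EGLN1, the main HIF prolyl hydroxylase, was higher in both colon lines on all 3 scales, with tag counts of 40.4 in HCT116 and 28.0 in RKO against 46.0 in A549 and 62.7 in H460 and centred log2 values of 1.69, 1.43, 0.97 and 1.19. EGLN3, a hydroxylase that HIF itself induces, overlapped, with RKO lowest at -0.38 and the other lines at 0.73, 0.69 and 0.83. Of 3 histone demethylase regions, KDM4B was higher in both colon lines on all 3 scales (1.25, 1.04, 0.78 and 0.71), whereas KDM3A and KDM4C overlapped.

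TFRC, the transferrin receptor through which cells take up iron, was higher in both colon lines beyond counting error on both scales. Its region at the start of the gene (chr3:195808925-195809103) had tag counts of 16.4 in HCT116 and 18.2 in RKO against 15.7 in A549 and 24.1 in H460, at percentiles of 97.0, 99.3, 90.6 and 91.3, and the counting intervals of the colon lines (95.9 to 97.7 and 99.1 to 99.6) lay above those of the lung lines (87.0 to 93.2 and 87.6 to 93.7). The difference was 0.98 ± 0.34 in centred log2 (limma, adjusted p = 0.256).

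The list drawn up for the mitochondrial switch and mitophagy gave 4 regions, at PDK1, BNIP3L, MXI1 and HILPDA, and 0 of them separated by rank or by centred log2. BNIP3L, a mitophagy receptor, had centred log2 values of 2.33, 1.69, 2.19 and 1.65 in the order HCT116, RKO, A549 and H460, and PDK1, which shuts pyruvate away from the mitochondrion, had 2.46, 1.92, 1.82 and 1.99. MXI1, a MYC antagonist, varied more within sides than between them, at 0.85, -0.38, -0.17 and 1.09. The collagen prolyl hydroxylases P4HA1 and P4HA2 and the growth inhibitors DDIT4 and BHLHE40 gave 6 regions, with 1 of 2 and 2 of 4 higher in both colon lines by rank, none of them on all 3 scales. On centred log2 values 1 of the 2 hydroxylase regions and 0 of the 4 growth inhibitor regions were higher in both colon lines. The DDIT4 region at -12870 bp from the start was higher in both lung lines on that scale, at 0.85, 1.06, 1.49 and 1.19. The lists for pH regulation, glycogen and NRF2 targets had 0 regions called in all 4 lines.

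**Figure D4:**
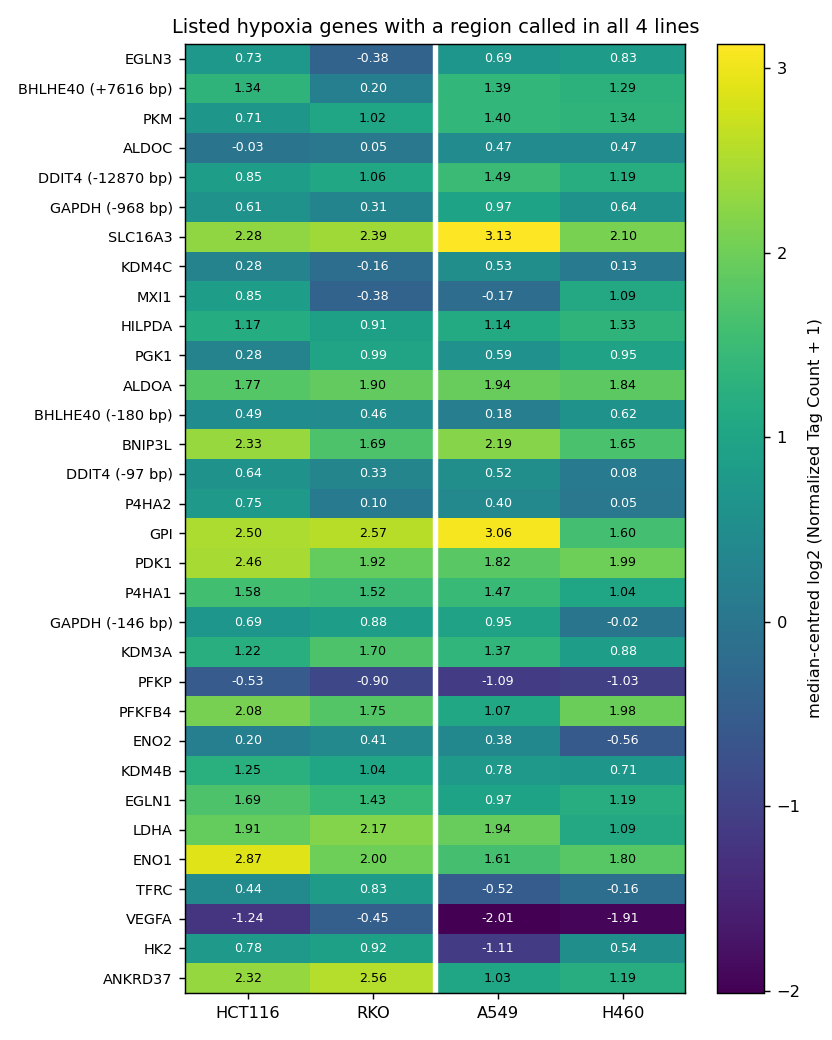
Centred log2 (Normalized Tag Count + 1) in each line (columns) for the 32 regions of listed hypoxia genes called in all 4 lines (rows), ordered from lung-leaning at the top to colon-leaning at the bottom, with the distance from the start where a gene has several regions. The bottom rows ANKRD37, HK2, VEGFA and TFRC are higher in both colon lines, while strong regions such as ALDOA (1.77 to 1.94) hardly vary.

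Several listed genes had regions called in 3 lines. BNIP3, another mitophagy receptor, had tag counts of 32.7 in HCT116, 59.3 in A549 and 96.0 in H460, at percentiles of 99.3, 99.4 and 99.7, and no peak in RKO. A second region of EGLN3 (25.3, 80.3 and 71.8), SLC2A3, which encodes the neuronal-type glucose transporter GLUT3 (26.9, 76.9 and 47.1), and STC2, a secreted glycoprotein (26.1, 48.7 and 52.8), were likewise called in HCT116, A549 and H460 and not in RKO. CA9, the membrane carbonic anhydrase of pH control, was called in RKO (4.78), A549 (51.5) and H460 (23.7) and not in HCT116, and SLC2A1, the GLUT1 gene, had a region called in HCT116 (14.7), RKO (18.5) and H460 (24.5) and not in A549. These genes were chosen after their values were seen, and other listed genes lacked the call in another line. A line without a peak did not pass the caller there, and the reads beneath were not examined.

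Over the 448 regions called in 3 lines, the outcome depended on which line was missing. Where A549 lacked the peak, both colon lines ranked above H460 at 90 of 141 regions (63.8%) and H460 above both at 9 (6.38%). Where H460 lacked it, both colon lines ranked above A549 at 17 of 82 (20.7%) and A549 above both at 20 (24.4%). Where RKO lacked it, both lung lines ranked above HCT116 at 57 of 152 (37.5%) and HCT116 above both at 40 (26.3%). Where HCT116 lacked it, both lung lines ranked above RKO at 10 of 73 (13.7%) and RKO above both at 48 (65.8%). By median percentile RKO was the highest line in each of its 3 combinations (94.6, 93.4 and 92.3) and H460 the lowest in each of its 3 (75.3, 84.3 and 79.5).

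The widest gaps among these regions reached 68.1 points. With the colon side higher, the region of STX18-AS1, at -93 bp from its start (chr4:4543660-4543871), stood at percentiles of 79.4 in HCT116 and 91.9 in RKO against 11.3 in H460. PHC2, a Polycomb protein gene, followed with 70.0 and 90.2 against 6.87, FIGNL1 with 90.7 and 94.4 against 40.8, a region in a coding exon of DNAAF3 with 78.3 and 92.3 against 38.1, and TBC1D17 with 76.9 and 85.3 against 38.1. At TBC1D17 the counting interval of RKO (4.55 to 93.3) overlapped that of H460 (9.29 to 60.6), whereas at the other regions of this group the sides did not overlap. The FIGNL1 region held 9 cores, the most of any named region, and that of PHC2 held 0.

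With the lung side higher, RAD51B, a homologous recombination factor, stood at 79.1 in A549 and 93.0 in H460 against 15.6 in RKO (chr14:68287187-68287472). RKO held only 19 tags there, and its counting interval, 0 to 88.4, contained the A549 value. A site 35406 bp from the start of DNAJB12 had tag counts of 27.7 in A549 and 44.7 in H460 against 3.29 in RKO, and percentiles of 96.3 and 97.5 against 54.8. GTF2A1-AS1 stood at 81.4 and 51.6 against 15.6 in RKO, whose counting interval, again 0 to 88.4 from 19 tags, contained both lung values. At the sites near DNAJB12, DDIT4 and PCSK1 the counting intervals did not overlap between sides. A site 23559 bp from the start of DDIT4, an inhibitor of mTOR signalling, had tag counts of 19.8 in A549 and 30.9 in H460 against 3.56 in HCT116 (chr10:74057151-74057323), and a site 49674 bp from PCSK1, a prohormone convertase, had 27.1 and 18 against 3.56. The higher side had 2 lines and the lower side 1, so these gaps rest on fewer values than those in 4 lines.

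At the 769 regions called in 1 line of each side, RKO ranked above H460 at 155 of 190 (81.6%, Wilson 95% interval 75.5 to 86.4) and above A549 at 88 of 131 (67.2%, 58.7 to 74.6). HCT116 ranked above H460 at 174 of 284 (61.3%, 55.5 to 66.7) and above A549 at only 45 of 164 (27.4%, 21.2 to 34.7). By rank within the list, the colon line was thus higher at most regions in 3 pairs, and the lung line in the pair of HCT116 and A549. In every pair the line that ranked higher at most regions was also the one with the longer list. The part of list length was not tested here, and the Wilson intervals treat regions as independent. The median percentile of the peaks ran from 62.2 in H460, beside RKO, to 87.9 in RKO, below the medians of 93.2 to 97.6 at regions called in all 4 lines.

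The share of regions near a gene start differed between the classes of regions. Of the 93 regions higher in both colon lines by rank, 80 (86.0%, Wilson 95% interval 77.5 to 91.6) lay within 2500 bp of a gene start, beside 2 of 8 (25.0%, 7.15 to 59.1) higher in both lung lines and 89 of 131 (67.9%, 59.5 to 75.3) where the sides overlapped. On centred log2 values these shares were 83.1% of 65 and 65.7% of 35, and by rank among the 232 regions 85.1% of 47 and 55.1% of 49. The share was higher for colon than for lung regions on each of the 3 scales, although on centred log2 values the Wilson intervals overlapped (72.2 to 90.3 and 49.2 to 79.2). These intervals treat regions as independent and do not cover variation between lines. The 3 scales come from the same tag counts, so their agreement is not separate support.

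Line by line, regions near a start were compared with regions farther away. The median centred log2 of the 171 near regions minus that of the 61 farther regions was 0.30 in HCT116 and 0.21 in RKO against -0.20 in A549 and -0.05 in H460. Both colon lines gave a positive and both lung lines a negative value, with means of 0.25 ± 0.06 and -0.13 ± 0.11 (SD, n = 2 lines a side) and a difference of 0.38 (exact permutation test, two-sided p = 0.333, the smallest that 4 lines allow). This contrast was chosen after the values were seen. In fold over input it was negative in all 4 lines, at -0.20, -0.29, -0.24 and -0.13, and colon minus lung was -0.06.

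**Figure D5:**
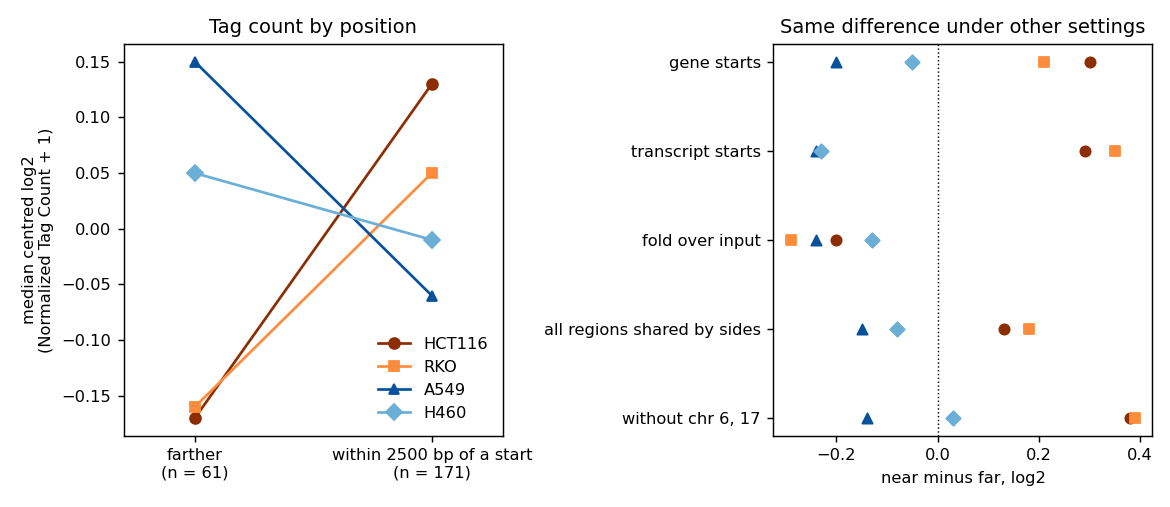
Left, median centred log2 (Normalized Tag Count + 1) of the 61 regions farther than 2500 bp and the 171 regions within 2500 bp of a gene start in each line. Right, near minus far under 5 settings, where the colon lines lie to the right of the lung lines in 4 settings and the lines overlap in fold over input.

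The core of the hypoxia response element was present in nearly all shared regions of either side. It was searched as ACGTG or GCGTG on both strands in 200 bp at the centre and was present in 91 of 93 colon regions (97.8%), 8 of 8 lung regions (100.0%) and 128 of 131 others (97.7%), against 44% of all 19628 regions. A control of equal GC content, ACGAG or GCGAG, was present in 66.7%, 12.5% and 61.8%, against 26.1% of all regions. Median GC content was 70.5%, 57.2% and 65.0%, against 49.0% of all.

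Other motifs were searched on both strands in the same 200 bp. The GC box GGGCGG was found in 64 of 93 colon regions (68.8%), 3 of 8 lung regions (37.5%) and 68 of 131 others (51.9%), against 18.5% of all regions, and on centred log2 values in 67.7% of colon and 40% of lung regions. The palindrome CACGTG, which contains the core and also binds MYC and related factors, was found in 16 of 93 (17.2%, Wilson 95% interval 10.9 to 26.1), 0 of 8 (up to 32.4) and 10 of 131 (7.63%, 4.2 to 13.5), against 5.7% of all. AP-1 sites were found in 4 of 93 (4.3%), 0 of 8 and 21 of 131 (16.0%), against 11.0% of all, searched as TGANTCA. On centred log2 values the AP-1 shares were 9.23% of colon, 8.57% of lung and 12.1% of other regions, so the lower share in colon regions was not repeated there.

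Motifs of lineage factors were counted in the same way. The intestinal CDX motif, searched as TTTATNG, was in 2 of 93 colon regions, 0 of 8 lung regions and 3 of 131 others, against 9.41% of all regions. The forkhead motif, searched as TGTTTAC, was in 4 of 93, 0 of 8 and 3 of 131, against 3.05% of all. Over the 232 regions its share was 3.02%, close to that of all regions, and the CDX share was 2.16%. The CDX motif is rich in A and T, while median GC content was 67.5% in the 232 regions against 49.0% of all. This difference in base composition was not taken into account. The 8 lung regions are too few to set a share of these motifs apart from that of the colon regions.

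The median difference between sides varied with the chromosome. All 12 regions of chromosome 6 were higher in both colon lines by rank, 11 on centred log2 values and 8 on all 3 scales, with a median centred log2 difference of 0.59, against 0.17 over all regions. They ran from WRNIP1, a DNA helicase-interacting protein gene at one end of the chromosome, with tag counts of 19.5 in HCT116 and 16.4 in RKO against 12.2 in A549 and 25.3 in H460, to ARID1B at the other. SCIRT stood at 67.3, 73.5, 83.1 and 54.4 and KPNA5, an importin gene, at 4.54, 5.08, 6.01 and 4.25. In the opposite direction stood chromosome 5, with a median of -0.51 over 10 regions, chromosome X, with -0.41 over 7, and chromosome 17, with -0.38 over 12. Mean input tags at the chromosome 6 regions were 2.0 in HCT116 and 3.17 in RKO against 2.0 in A549 and 2.17 in H460, against 2.47, 2.93, 3.8 and 2.2 over all 232 regions. At the chromosome 17 regions they were 3.33, 2.83, 6.33 and 3.67. Input tags in A549 were thus below the overall mean on chromosome 6 and above it on chromosome 17, and their part in the differences was not tested. Without chromosome 6, 81 and 8 of 220 regions were higher in both colon and both lung lines by rank, and 36 and 7 on all 3 scales.

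Normoxia peaks overlapped a minority of the regions. Among the 93 colon regions 5 overlapped a normoxia peak in HCT116 and 6 in RKO against 15 in A549 and 6 in H460, and among the 8 lung regions 0, 0, 1 and 1, where both calls belonged to SLC16A3. Among the regions where the sides overlapped the numbers were 4, 6, 27 and 5. A549 thus had the most normoxia calls in regions higher in colon lines as well as where the sides overlapped. This held beyond the classes, with 9, 12, 43 and 12 over the 232 regions and 43, 125, 197 and 48 over all 19628.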

How the data were processed

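HIF1A ChIP-seq peak lists of 4 cell lines in hypoxia were analysed, from 8 of 20 samples, and the 4 normoxia lists served for overlap. Per the labels, reads were aligned to GRCh37 with Bowtie2 (2.2.9) and processed with SAMtools (1.3.1) and Picard (1.129). Per the file headers the authors merged both replicates and called peaks with HOMER (4.3) against an input library, with a fold threshold that differed by line, a local fold of 3 and an FDR of 0.1%. The deposited Normalized Tag Count is a signal in tags per 10000000. The deposited control tags are a score scaled to the smaller library, the fold over input is a ratio of deposited values, and the deposited local fold was used as a score. The descriptions of the RKO and A549 input samples name each other's line, whereas the file headers pair each list with the input of its own line.

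Peaks were joined at an overlap of 1 bp, with the strongest peak of a line kept. Unscaled tags were computed as signal times the header total, and their sums equalled the header values. Log2 values had a pseudocount of 1. limma (3.58.1, R 4.3.3) compared 2 with 2 lines, which may differ in more than organ, with Benjamini-Hochberg adjustment over 232 regions, and was tested on simulated data. Starts were those of 38878 genes of GENCODE 44. A region was given to a listed gene when its centre lay in the gene or within 50000 bp of the start. Named loci were the 10 widest rank gaps and 5 widest log2 gaps on each side (8 lung regions exist), 5 gaps a side in 3 lines, and listed genes. Loci of chromosome 6 and genes lacking a call in 1 line were named after their values were seen. The regions, lists and rules were chosen with earlier results of these data known. A locus that the naming rule selected is not reported here.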

Additional observations from a re-analysis of the deposited data

Results flagged for a closer look

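The contrast between regions near a gene start and regions farther away was set aside for a closer look because both colon lines moved one way and both lung lines the other. Near minus far, in centred log2, was 0.30 in HCT116 and 0.21 in RKO against -0.20 in A549 and -0.05 in H460, a colon minus lung difference of 0.38. The exact permutation test over 4 lines cannot go below p = 0.333 (two-sided), so the difference could not pass a threshold.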

How the results depend on the processing

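Of the counts by rank, 93 colon and 8 lung regions, overlap of at least 50% of the shorter peak gave 92 and 8 and summing the peaks of a region gave 93 and 8. Rank among the shared regions gave 47 and 49, centred log2 values 65 and 35, the rank of the fold over input 31 and 45, only peaks 14 or more times above input 15 and 18, only peaks 6 or more times above their surroundings 20 and 59, and gaps beyond counting error 21 and 3. Added after the data were seen, all 3 scales gave 44 and 7, lists of equal length 69 and 27, and counting error on centred log2 values 13 and 5. Leaving out each line gave 98 to 177 colon and 17 to 57 lung regions, the colon count moving most without HCT116 (177 and 17) and A549 (150 and 19), the lung count without RKO (98 and 57) and H460 (109 and 39). With 1 line on a side fewer values must agree.

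The median difference of 1.56 points turned to -3.14 for the rank of the fold over input and to -1.19 for peaks 6 or more times above their surroundings, and ran from 0.480 to 2.85 when each line was left out. The limma count in the colon direction was 1 on the logit of the rank, and that in the lung direction 111 without centring, where the overall level of the lists enters. It was 0 in both directions in the remaining settings, and between 0 and 0 when each line was left out, where the lone line is assumed to vary like the other side. With every transcript start the near shares were 94.6% of colon regions and 81.7% where the sides overlapped. The start-site contrast was 0.55 with transcript starts, 0.27 over all regions called on both sides, and -0.06 in fold over input, and ran from 0.30 to 0.46 when each line was left out. Without chromosomes 6 and 17 it was 0.44. There near minus far was 0.03 in H460 and -0.14 in A549, so the lung lines no longer shared a sign. The cause of these shifts was not tested. Count models (edgeR and DESeq2) were not run. No deposited column holds unscaled counts, and the tags computed from the signal were used only for tag numbers and counting intervals. No paired analysis was possible because both replicates of a line, numbered 1 and 2, had been merged when peaks were called.

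Depth limits the weakest shared regions, which held 19 to 24 tags, and the fold over input, which rests on few input tags: 25.9% to 45.6% of the peaks of a list had no input tag.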

Other observations

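Pairs of cores on 1 strand were counted by their distance, a feature noticed in the printed sequences of BIRC3 and ITGB3. A pair 9 bp from start to start, with 4 bases between the cores, was present in 16 of 232 regions called in all 4 lines (6.90%, Wilson 95% interval 4.29 to 10.9), in 16 of 448 called in 3 lines (3.57%, 2.21 to 5.72), in 11 of 769 called in 2 lines (1.43%, 0.801 to 2.54) and in 113 of all 19628 regions (0.576%). By rank it was in 3 of 8 regions higher in both lung lines (BIRC3, ITGB3 and SLC16A3), 6 of 93 higher in both colon lines and 7 of 131 where the sides overlapped. On centred log2 values the counts were 3 of 35, 2 of 65 and 11 of 132. The pair was defined from BIRC3 and ITGB3, which lie in the lung class on both scales, so the lung shares cannot show an excess. A distance of 8 bp was present in 14 of the 232 regions (6.03%) and one of 10 bp in 1 (0.431%). Distances of 12, 14 and 18 bp were each present in 9 (3.88%). Of the 232 regions 60.3% held 2 or more cores, against 19.5% of all regions, and this was not taken into account. The regions were not tested against windows of equal base composition.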
